A study of Mus musculus with 6 samples.

Results

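The collagen genes were taken as the protein-coding genes of the count table whose GRCm38 symbol is written Col, a number, the letter a and a number. This rule found 44 of the 54838 genes counted, on 15 chromosomes, and used no measured value. They comprised 11 fibrillar collagen genes, 6 basement membrane genes (the type IV chains), the 2 network genes Col8a1 and Col8a2, and 25 others. RNA sequencing had been performed on hippocampi of 3 wild-type and 3 FVB/NJ-Tg(ORAI1)Ibd female mice, all 7 months old, with 1 library per mouse. The transgenic line, named for the FVB/NJ strain, carries a human ORAI1 coding sequence in a mouse Thy-1.2 cassette, which drives expression in neurons, and the wild-type mice carry no transgene. ORAI1 is the pore subunit of the store-operated calcium channel. All mice of the transgenic group came from this line, so the effect of the transgene cannot be told apart from anything else particular to the line.

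Collagens are matrix proteins whose chains wind into a triple helix, and many need chains from several genes. Fibrillar collagens form the tensile fibres of connective tissue, type IV collagen forms the sheet-like mesh of every basement membrane, and type VIII collagen forms a short-chain network in specialised membranes. In the brain, collagen is found mainly in blood vessel walls, in the meninges and around the choroid plexus, while a few collagens, such as the transmembrane collagen of Col25a1, are made by neurons.

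The methods call the sequencing paired-end but write the read length in single-read form, and the counts were taken as fragments because reads were counted in paired mode. Libraries held 37414241 to 52497799 counted fragments, of which 39266 to 53963 fell on collagen genes. Mouse Orai1 rose from 302 to 376 counts in wild-type libraries to 11834 to 14620 counts in transgenic libraries, so the genotype labels and the counts matched, although reads of the human transgene assigned to the mouse gene are counted here too. Expression was compared with edgeR's quasi-likelihood test over 19087 genes, with Benjamini-Hochberg adjustment over all of them and a threshold of 0.05. A gene that passed is said below to have risen or fallen. Levels that are compared between genes are given as FPKM, fragment counts scaled to merged exon length and to the TMM-adjusted total of the genes tested. A log2 fold change is transgenic relative to wild-type. Its standard error (SE) was computed as the absolute log2 fold change divided by the square root of the F statistic of edgeR's test. Nothing in the labels names the litters of the mice, and p-values measure the spread between these 6 libraries only. Hippocampal neuron markers were abundant in every library, at a summed 7532 to 8246 CPM (counts scaled to the same total, not to length) over 10 genes, with Camk2a, Snap25 and Slc17a7 highest. The sums were 7562, 7648 and 7532 CPM in wild-type and 8246, 7703 and 7772 CPM in transgenic mice. Of these 10 genes, 1 rose, Slc17a7 (log2 fold change 0.26 ± 0.052, SE, adjusted p 0.0356 by edgeR), beside 3.10% of all genes tested.

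The library of transgenic mouse 1 stood apart from the other transgenic libraries. It held the lowest value of all 6 libraries for 24 of the 43 collagen genes tested (55.8%), against 26.9% of all genes tested. Its collagen values were a median 0.730 times the mean of transgenic mice 2 and 3, where the median over all genes was 0.996. Markers of meningeal and perivascular fibroblasts were lowest in the same library for 13 of 14 genes, endothelial markers for 8 of 12, and markers of mural cells, which wrap the vessels, for 8 of 12. Summed fibroblast markers were 265, 275 and 355 CPM in wild-type mice 1 to 3 and 173, 459 and 295 CPM in transgenic mice 1 to 3. In whole hippocampus, fewer cells of a type and less RNA per cell cannot be told apart. Where this library was far from the other transgenic libraries, the main comparisons are also given without it.

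**Figure D1:**
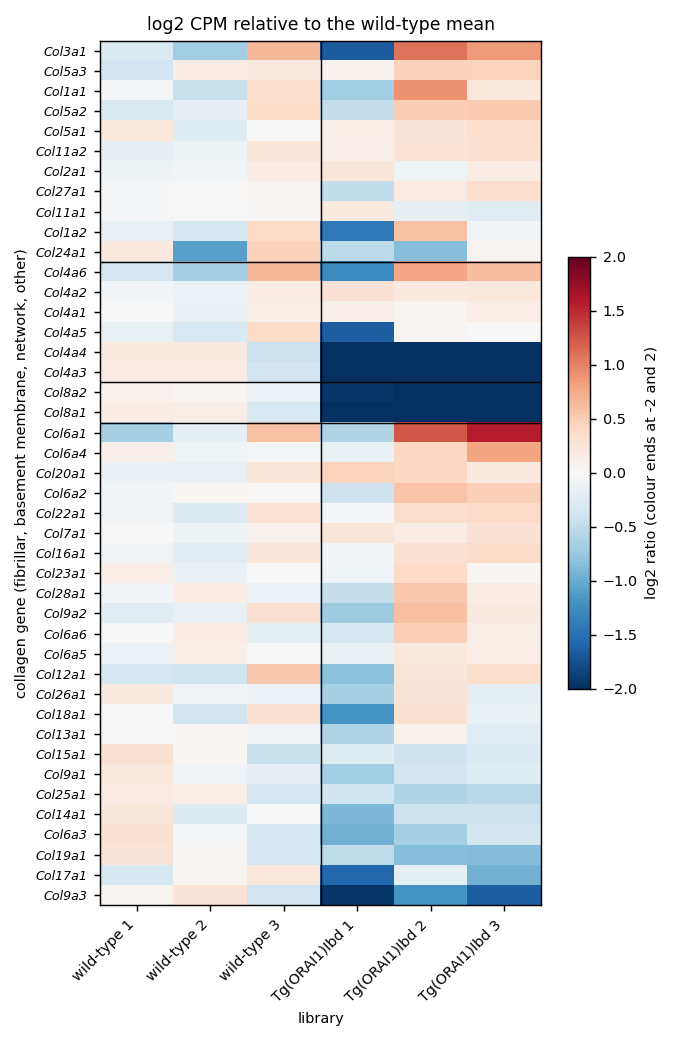
Colour gives the log2 ratio of CPM to the wild-type mean for each of the 43 collagen genes tested (rows, by class and then by fold change) in each of the 6 libraries (columns). Col4a3, Col4a4, Col8a1 and Col8a2 are low in all 3 transgenic libraries, and transgenic library 1 is low for many other collagen genes.

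Every collagen gene had at least 1 count in every library, and 43 of 44 passed the filter on low counts. The exception was Col10a1, the growth plate collagen, with 3 to 7 counts per library. Mean FPKM in wild-type hippocampus ran from 0.033 for Col10a1 to 21.5 for Col6a1. Among the highest were also Col4a2 at 16.7 ± 1.68 FPKM (SD, n = 3), Col9a3 at 14.6 ± 3.09 FPKM, Col25a1 at 11.1 ± 2.06 FPKM and Col4a1 at 10.4 ± 0.928 FPKM. The wild-type libraries of neighbours in this order overlapped for 38 of 43 pairs, including every pair of neighbours among these 5 genes. The pairs that separated were Col4a1 and Col11a1, Col11a1 and Col16a1, Col11a2 and Col23a1, Col9a1 and Col28a1, and Col6a4 and Col10a1. The wild-type libraries of Col9a3, from 11.2 to 17.3 FPKM, overlapped those of Col4a2, from 15.4 to 18.6 FPKM. By count rather than per length, Col25a1 took 15.7%, 15.6% and 10.1% of the collagen fragments of wild-type mice 1 to 3, the largest part in mice 1 and 2, while in mouse 3 Col6a1 (12.5%) and Col4a2 (10.9%) took more.

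**Figure D2:**
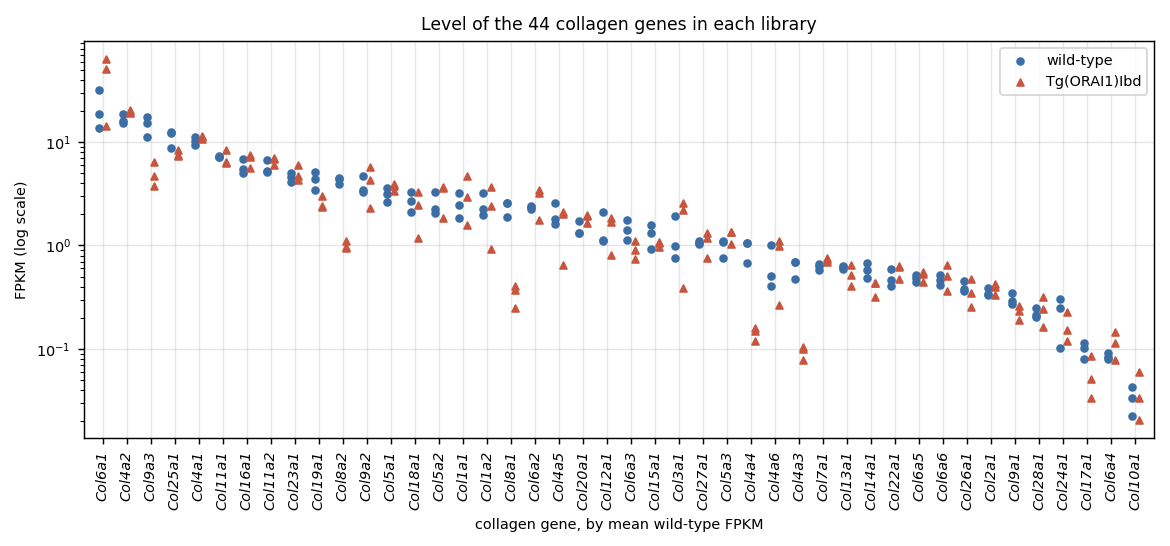
Each point is the FPKM (log axis) of a collagen gene in 1 library, for 44 genes ordered by mean wild-type FPKM, with wild-type libraries as circles and Tg(ORAI1)Ibd libraries as triangles. Triangles lie well under the circles for Col8a2, Col8a1, Col4a4 and Col4a3, while for Col6a1 transgenic libraries 2 and 3 lie above all wild-type libraries.

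The summed level of all collagen genes did not separate the genotypes. It was 1031, 1008 and 1128 CPM in wild-type mice and 842, 1171 and 1182 CPM in transgenic mice, where transgenic mouse 1 was the lowest of all. The means were 1055 ± 63.7 and 1065 ± 193 CPM (SD, n = 3 each), with p = 1.0 by a two-sided exact permutation test, which cannot give less than 0.1 with 3 mice per group. Without transgenic mouse 1, both remaining transgenic libraries lay above every wild-type library, and their mean of 1176 CPM gave p = 0.2 in the same exact test, the smallest possible with 3 mice against 2.

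Of the 43 collagen genes tested, 6 fell and none rose. The genes that fell were Col8a1, Col4a3, Col4a4, Col8a2, Col9a3 and Col19a1. Of all 19087 genes tested, 764 fell and 591 rose, 7.10% in all, and 3.10% rose. At an unadjusted p under 0.05, 3 collagen genes were higher (Col4a2, Col7a1 and Col20a1) and 9 were lower, against 13.0% and 14.8% of all genes. DESeq2's Wald test called 1 collagen gene higher and limma-voom called none. Without transgenic mouse 1, edgeR called 2 higher, Col6a1 and Col6a2, and without wild-type mouse 3 it called Col4a2 and Col11a2 higher. The transgenic libraries lay all below the wild-type libraries for 10 collagen genes and all above for 2 (Col4a2 and Col7a1), with 32 overlapping. Over all genes tested, 17.9% lay all below and 16.9% all above.

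The median log2 fold change of the collagen genes tested was 0.078, with 24 positive and 19 negative, beside -0.010 over all genes tested. By class the medians were 0.23 for fibrillar, -0.13 for basement membrane, -2.43 for network and 0.044 for other collagens. The median over all collagens turned negative without transgenic mouse 2, at -0.10, and with an offset for GC content, at -0.0076, and was 0.20 without transgenic mouse 1. The basement membrane median turned positive without transgenic mouse 1 (0.066) or wild-type mouse 3 (0.023). The median of other collagens turned negative in 7 of 15 alternatives: without transgenic mouse 2 (-0.15) or 3 (-0.023), without wild-type mouse 1 (-0.0033) or 2 (-0.039), in limma-voom (-0.00055) and with the GC offset alone (-0.0073) or with the replicate block (-0.060). The fibrillar median stayed positive but was 0.031 with the GC offset, 0.098 without transgenic mouse 2 and 0.11 without wild-type mouse 2, against 0.30 without transgenic mouse 1. Fold changes of collagen genes had larger SEs than most, above the median of all genes (0.10) for 39 of 43. The SE includes the spread between mice, and that of Col6a2 went from 0.23 to 0.062 when transgenic mouse 1 was left out.

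**Figure D3:**
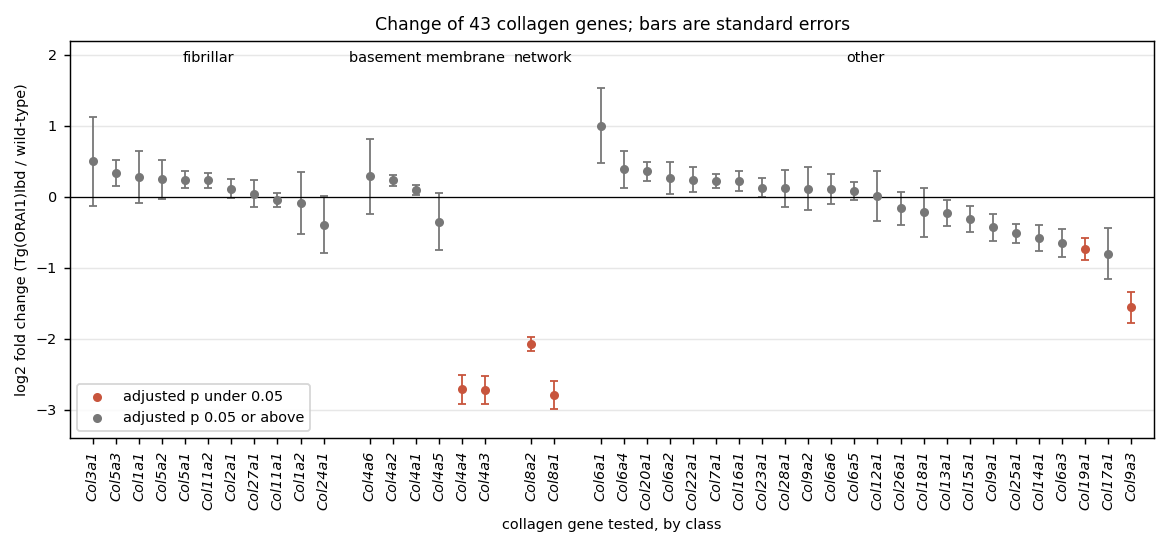
Points are log2 fold changes (Tg(ORAI1)Ibd relative to wild-type) of the 43 collagen genes tested, grouped by class, and bars are standard errors computed from edgeR's F statistic. The 6 genes with an adjusted p under 0.05 are coloured and all lie below 0, with Col4a3, Col4a4, Col8a1 and Col8a2 between -2.80 and -2.07.

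The 2 network collagens both fell. Col8a1 and Col8a2 encode the chains of type VIII collagen, a short-chain collagen first known from endothelial cells and from the Descemet membrane of the cornea. Col8a1 was at 2.60, 2.55 and 1.91 FPKM in wild-type mice 1 to 3 and at 0.249, 0.402 and 0.372 FPKM in transgenic mice 1 to 3. All transgenic libraries lay below all wild-type libraries, and the transgenic mean was 14.5% of the wild-type mean. The log2 fold change was -2.80 ± 0.20 (SE), with an adjusted p of 0.00105 in edgeR's quasi-likelihood test. Col8a2 was at 4.49, 4.35 and 3.92 FPKM in wild-type and 1.10, 0.975 and 0.952 FPKM in transgenic mice. These groups did not overlap either, and within each genotype the libraries were close, with a coefficient of variation of 7.03% in wild-type and 8.07% in transgenic mice. This gave a log2 fold change of -2.07 ± 0.094 (SE), with an adjusted p of 0.000184. Among collagen genes ordered by FPKM, Col8a1 moved from place 18 in wild-type to 36 in transgenic hippocampus and Col8a2 from 11 to 25. Leaving out transgenic mouse 1 gave log2 fold changes of -2.61 for Col8a1 and -2.14 for Col8a2, with adjusted p of 0.00114 and 0.000243.

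Within type VIII collagen, the log2 ratio of Col8a1 to Col8a2 FPKM was -0.79, -0.77 and -1.04 in wild-type mice and -2.15, -1.28 and -1.36 in transgenic mice. Every transgenic ratio was below every wild-type ratio. The two-sided exact permutation test gave p = 0.1, the smallest that 3 against 3 allows. Of 7 ratios between collagen genes compared in this way, 5 separated the genotypes at p = 0.1 (0.14 after Benjamini-Hochberg adjustment over the 7 exact tests), and none passed the threshold. The others that separated were Col4a3 to Col4a1, Col4a1 to Col4a2 (mean -0.69 in wild-type and -0.82 in transgenic mice), Col4a5 to Col4a6 (1.73 and 1.08) and Col1a1 to Col1a2 (0.013 and 0.46). Col6a1 to Col6a2 (3.11 and 3.73) did not separate.

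The type IV collagens split by chain. Col4a3 and Col4a4 fell, while Col4a1, Col4a2, Col4a5 and Col4a6 did not pass the test. The type IV genes lie in head-to-head pairs, each transcribed away from its partner. Col4a1 and Col4a2 provide the chains of nearly all basement membranes, including those of brain vessels. Col4a3 and Col4a4 join with Col4a5 in a trimer best known from the kidney glomerulus, where its loss causes Alport syndrome, and Col4a6 joins with Col4a5 in a separate trimer. In the GRCm38 annotation Col4a4 (chr1:82448423-82586849, minus strand) and Col4a3 (chr1:82586921-82722059, plus strand) are 71 bp apart. Col4a6 and Col4a5 on chromosome X are 1308 bp apart, and the transcribed regions of Col4a1 and Col4a2 on chromosome 8 overlap by 22 bp on opposite strands, which the stranded counting kept apart.

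Col4a3 was at 0.696, 0.692 and 0.477 FPKM in wild-type mice and 0.103, 0.079 and 0.099 FPKM in transgenic mice, or 363, 291 and 180 counts against 48, 30 and 37. Wild-type mouse 3 was the lowest of its group and still above every transgenic library. Its log2 fold change was -2.72 ± 0.20 (SE), with an adjusted p of 0.00123 by edgeR. Col4a4 was at 1.05, 1.05 and 0.685 FPKM in wild-type and 0.119, 0.158 and 0.148 FPKM in transgenic mice. The groups again did not overlap, and wild-type mouse 3 was again the lowest wild-type library. The log2 fold change of Col4a4 was -2.71 ± 0.21 (SE), with an adjusted p of 0.00137. Without transgenic mouse 1 the log2 fold changes were -2.80 for Col4a3 and -2.60 for Col4a4, with adjusted p of 0.00418 and 0.00482. The ratio of the partners differed by less than the spread between mice: the log2 ratio of Col4a3 to Col4a4 averaged -0.57 ± 0.043 in wild-type and -0.60 ± 0.40 in transgenic mice (SD, n = 3 each, p = 0.9, two-sided exact permutation test), with few counts behind the transgenic values.

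Col4a1 was at 10.3, 9.45 and 11.3 FPKM in wild-type and 11.2, 10.8 and 11.3 FPKM in transgenic mice. These ranges overlapped, and the log2 fold change of 0.099 ± 0.067 (SE) gave an adjusted p of 0.380 by edgeR. Col4a2 was at 16.2, 15.4 and 18.6 FPKM in wild-type and 20.4, 19.2 and 19.3 FPKM in transgenic mice. All transgenic libraries were above all wild-type libraries, but the log2 fold change of 0.23 ± 0.074 (SE) missed the threshold, with an adjusted p of 0.0942. It passed without wild-type mouse 3 (0.32, adjusted p 0.0316) and in DESeq2's Wald test (0.24, adjusted p 0.0367), and in none of the 13 other alternatives. With the GC offset it was 0.080 (adjusted p 0.565), and 0.085 (0.451) with the replicate block added. Set against Col4a1 in the same library, Col4a3 was at a log2 ratio of -4.08 ± 0.43 in wild-type and -6.90 ± 0.18 in transgenic mice (SD, n = 3 each, p = 0.1, two-sided exact permutation test).

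Col4a5 was at 1.82, 1.63 and 2.60 FPKM in wild-type and 0.642, 2.10 and 2.02 FPKM in transgenic mice. Transgenic mouse 1 was the lowest library, and the fold change was -0.35 ± 0.40 (SE, log2, adjusted p 0.620 by edgeR) with this library and 0.036 ± 0.19 (adjusted p 0.918) without it. Col4a6 was at 0.508, 0.407 and 1.01 FPKM in wild-type and 0.266, 1.10 and 0.988 FPKM in transgenic mice. Its groups overlapped too, and its log2 fold change of 0.29 ± 0.53 (SE, adjusted p 0.762) was 0.71 ± 0.34 (adjusted p 0.224) without transgenic mouse 1 and -0.022 without transgenic mouse 2. Neither Col4a5 nor Col4a6 passed the test in any alternative.

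**Figure D4:**
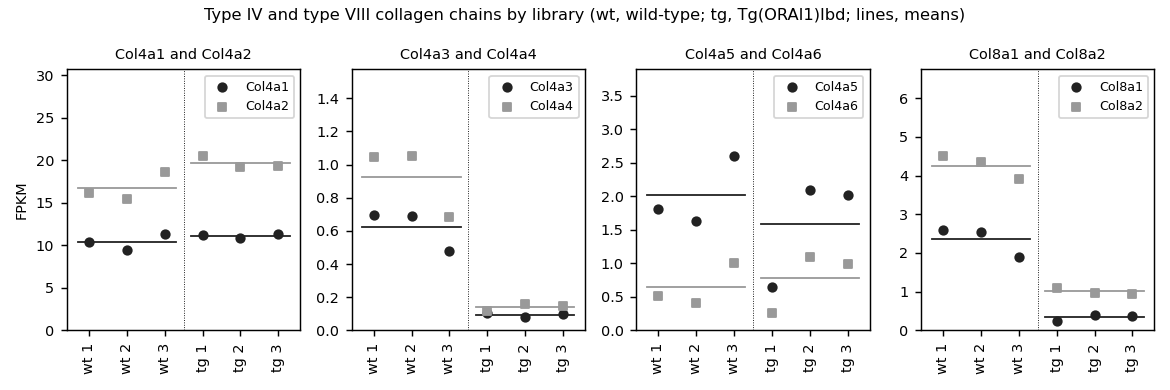
Panels give FPKM by library for the type IV pairs Col4a1 and Col4a2, Col4a3 and Col4a4, and Col4a5 and Col4a6, and for Col8a1 and Col8a2 (wt, wild-type; tg, Tg(ORAI1)Ibd; numbers are mice), with lines at group means and axes from 0. Col4a3, Col4a4, Col8a1 and Col8a2 drop in every transgenic library, whereas Col4a5 and Col4a6 are low in transgenic library 1 alone of the transgenic libraries.

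Because Col4a3 and Col4a4 are read outward from a common stretch, and fell with Col8a1 and Col8a2, the sequences just before these genes are shown. They are RefSeq promoter windows of GRCm38.p6, written 5′ to 3′ on the strand of the gene named, and the shared stretch is written on the strand of Col4a4, from the Col4a3 start to the Col4a4 start. The shared stretch is chr1:82586850-82586920 (minus strand), the Col8a1 stretch chr16:57754738-57754887 (minus strand) and the Col8a2 stretch chr4:126286643-126286792 (plus strand), and none contains an annotated exon. Capitals mark GC boxes (GGGCGG on either strand), the letters known to be bound by Sp1.
Col4a3 to Col4a4: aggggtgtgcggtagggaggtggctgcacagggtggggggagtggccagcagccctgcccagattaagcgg
Col8a1: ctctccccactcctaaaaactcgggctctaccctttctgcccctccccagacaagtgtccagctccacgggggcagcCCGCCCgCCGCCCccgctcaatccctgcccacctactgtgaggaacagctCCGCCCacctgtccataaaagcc
Col8a2: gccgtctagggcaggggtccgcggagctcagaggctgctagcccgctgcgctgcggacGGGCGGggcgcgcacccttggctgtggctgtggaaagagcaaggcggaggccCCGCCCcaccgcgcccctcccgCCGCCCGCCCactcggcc

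The 71 bp between Col4a4 and Col4a3 were 69.0% G or C and held no GC box, while 20.7% of 32851 RefSeq windows of that length before a start held at least 1. The 150 bp before Col8a1 were 64.7% G or C with 3 GC boxes, and those before Col8a2 were 78.0% G or C with 4, of which the last 2 overlap. A GC box occurred in 28.6% of all windows of 150 bp. Other letters searched on both strands were the TATA box (TATAAA), the CCAAT box (CCAAT) and an OTX homeodomain motif (TAATCC). None of these was in any of the 3 stretches, and they were in 7.57%, 24.5% and 3.60% of all windows of 150 bp and in 4.41%, 13.3% and 1.57% of windows of 71 bp. Over the 250 bp before a start, 35 collagen genes could be read, and 21 of them (60.0%) held a GC box in at least 1 window, against 35.4% of 27025 genes. Of these 35 collagen genes, 5 held a TATA box, 13 a CCAAT box and none the OTX motif, while the shares over all genes were 14.3%, 37.5% and 7.21%.

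None of the 11 fibrillar collagen genes passed the test, and the groups overlapped for all 11, where 7.10% of all genes tested passed and 34.9% did not overlap. Col1a1 and Col1a2 encode the chains of type I collagen, the main collagen of skin, bone and meninges. Col1a1 was at 2.48, 1.85 and 3.22 FPKM in wild-type and 1.56, 4.69 and 2.92 FPKM in transgenic mice, so that transgenic mice 1 and 2 held the lowest and the highest value. Col1a1 had a log2 fold change of 0.28 ± 0.37 (SE, adjusted p 0.671 by edgeR), or 0.60 ± 0.26 (adjusted p 0.180) without transgenic mouse 1 and -0.15 without transgenic mouse 2. Col1a2 was at 2.26, 1.99 and 3.20 FPKM in wild-type and 0.925, 3.71 and 2.39 FPKM in transgenic mice, again with transgenic mouse 1 lowest and 2 highest. Its log2 fold change of -0.088 ± 0.43 (SE, adjusted p 0.920) became 0.30 ± 0.23 (adjusted p 0.437) without transgenic mouse 1. Without wild-type mouse 3 it was 0.14.

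Col3a1, the type III collagen that accompanies type I in vessel walls and soft tissue, had the widest spread of the collagen genes among transgenic mice, with a coefficient of variation of 68.1%. It was at 0.997, 0.751 and 1.91 FPKM in wild-type and 0.384, 2.57 and 2.21 FPKM in transgenic mice. Transgenic mouse 1 was at 0.161 times the mean of transgenic mice 2 and 3, the lowest such ratio of any collagen gene tested. The log2 fold change was 0.50 ± 0.63 (SE, adjusted p 0.652 by edgeR), and 0.98 ± 0.33 (adjusted p 0.117) without this library. Col11a1, a type XI chain that sits inside cartilage fibrils, was the highest fibrillar gene in wild-type hippocampus. It was at 7.10, 7.25 and 7.34 FPKM in wild-type and 8.31, 6.47 and 6.24 FPKM in transgenic mice. The wild-type libraries had a coefficient of variation of 1.73%, the transgenic ones lay on both sides of them, and the log2 fold change was -0.044 ± 0.10 (SE, adjusted p 0.820). Here transgenic mouse 1 was the highest library, unlike for Col1a1, Col1a2 and Col3a1, and without it the log2 fold change was -0.19 ± 0.042 (SE, adjusted p 0.0507). The other fibrillar genes, Col2a1, Col5a1, Col5a2, Col5a3, Col11a2, Col24a1 and Col27a1, had log2 fold changes between -0.39 and 0.34, and only Col11a2 passed the test in any alternative (0.37, adjusted p 0.0467, without wild-type mouse 3).

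Type VI collagen forms beaded filaments beneath cells in many tissues. Its gene Col6a1 had the highest mean FPKM of all collagen genes in both genotypes, though in wild-type mouse 1 and transgenic mouse 1 Col4a2 was higher (16.2 and 20.4 FPKM), as was Col9a3 in the former (15.1 FPKM). Col6a1 was at 13.6, 18.8 and 32.1 FPKM in wild-type and 14.2, 50.9 and 63.8 FPKM in transgenic mice. Transgenic mice 2 and 3 were above every wild-type library, whereas transgenic mouse 1 was level with the lowest. The log2 fold change of 1.00 ± 0.53 (SE) gave an adjusted p of 0.259 by edgeR, and without transgenic mouse 1 it was 1.42 ± 0.31, with an adjusted p of 0.0476, the single alternative of 15 in which it passed. It was 0.61 (adjusted p 0.540) without transgenic mouse 3 and 0.76 (0.517) without wild-type mouse 1. For Col6a2, too, transgenic mice 2 and 3 lay above and transgenic mouse 1 below every wild-type library, at 2.25, 2.41 and 2.37 FPKM in wild-type and 1.75, 3.48 and 3.25 FPKM in transgenic mice. Its log2 fold change was 0.27 ± 0.23 (SE, adjusted p 0.485), and 0.52 ± 0.062 (adjusted p 0.0120) without transgenic mouse 1, again the single alternative that passed, but 0.11 without transgenic mouse 2 and 0.17 without transgenic mouse 3. Col6a3, the large chain of the same protein, was instead all below, at 1.77, 1.42 and 1.12 FPKM in wild-type and 0.740, 0.911 and 1.12 FPKM in transgenic mice. Wild-type mouse 3 and transgenic mouse 3 were nearly equal, and the log2 fold change of -0.65 ± 0.20 (SE) missed the threshold (adjusted p 0.0833), although it passed without the filter on low counts (adjusted p 0.0264) and in DESeq2's Wald test (adjusted p 0.0122). It missed in the 13 other alternatives, among them without wild-type mouse 1 (-0.46, adjusted p 0.256), with the GC offset (0.108) and with the replicate block (0.119). Col6a4, Col6a5 and Col6a6 were low, at a mean of 0.085 to 0.483 FPKM in wild-type mice.

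Of the 9 fibril-associated collagens, which coat the surface of other fibrils, Col9a3 and Col19a1 fell. Col9a3, a chain of the cartilage collagen type IX, was at 15.1, 17.3 and 11.2 FPKM in wild-type and 3.78, 6.46 and 4.67 FPKM in transgenic mice. The groups did not overlap, and the gene went from place 3 among the collagens in wild-type to 9 in transgenic mice. Its log2 fold change was -1.56 ± 0.22 (SE), with an adjusted p of 0.0156 by edgeR, and -1.39 (adjusted p 0.0217) without transgenic mouse 1. The call was lost without wild-type mouse 1 (-1.51, adjusted p 0.0783), wild-type mouse 2 (-1.40, 0.0622) or transgenic mouse 3 (-1.50, 0.0721). The partner chains did not pass the test: Col9a1 was at a mean of 0.304 FPKM in wild-type and 0.227 FPKM in transgenic mice, all below, and Col9a2 at 3.80 and 4.12 FPKM, overlapping.

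Col19a1, a collagen that neurons make and that is known from synapse formation in the hippocampus, was at 5.15, 4.41 and 3.41 FPKM in wild-type and 3.03, 2.40 and 2.36 FPKM in transgenic mice. All transgenic libraries were below all wild-type libraries, with transgenic mouse 1 the highest of its group. The log2 fold change of -0.74 ± 0.16 (SE) had an adjusted p of 0.0410 by edgeR, and -0.86 (adjusted p 0.0353) without transgenic mouse 1. The call was lost without wild-type mouse 1 (-0.57, adjusted p 0.157), wild-type mouse 2 (-0.70, 0.142), transgenic mouse 2 (-0.66, 0.108) or transgenic mouse 3 (-0.65, 0.125), and with an offset for GC content (-0.75, 0.0594).

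Col25a1, a transmembrane collagen of neurons whose shed part was found in amyloid plaques, was at 12.5, 12.2 and 8.77 FPKM in wild-type and 8.47, 7.36 and 7.56 FPKM in transgenic mice. The groups did not overlap, though wild-type mouse 3 was close to transgenic mouse 1. The log2 fold change was -0.52 ± 0.13 (SE), with an adjusted p of 0.0569 by edgeR. It passed without wild-type mouse 3 (-0.65, adjusted p 0.0106), without the filter on low counts (adjusted p 0.0137), in DESeq2's Wald test (adjusted p 0.00231) and with the replicate block (0.0453), but not in the 11 other alternatives, with the weakest value without wild-type mouse 1 (-0.41, adjusted p 0.209). The other transmembrane collagens Col13a1, Col17a1 and Col23a1 overlapped between genotypes, as did Col15a1 and Col18a1, the vessel-associated multiplexins. Col18a1, whose end fragment is endostatin, was at 1.17, 3.32 and 2.44 FPKM in transgenic mice 1 to 3, within which transgenic mouse 1 lay below every wild-type library (2.09 to 3.28 FPKM). Its log2 fold change was -0.22 ± 0.34 (SE, adjusted p 0.718 by edgeR) with this library and 0.11 ± 0.20 (adjusted p 0.759) without it. Col14a1 was all below, at a mean of 0.586 FPKM in wild-type and 0.394 FPKM in transgenic mice (log2 fold change -0.58 ± 0.18, adjusted p 0.0946), and Col7a1, the anchoring fibril collagen, was all above, at 0.621 and 0.726 FPKM (0.22 ± 0.095, adjusted p 0.176). Col7a1, Col20a1 and Col3a1 share 36, 79 and 141 exon bases with another gene on the same strand, so a few of their reads could have been left uncounted.

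Of 67 collagen pathway genes tested, 1 rose and 7 fell, or 11.9% called, beside 7.10% of all genes tested. Without transgenic mouse 1, 2 rose and 5 fell: Ppib, a proline isomerase of collagen folding, was added (0.28, adjusted p 0.0393), and Loxl4 (-1.13, 0.0845) and Mmp15 (-0.24, 0.0696) were lost. Of 19 genes that modify, fold and export collagen chains, 1 rose: Plod3, a lysyl hydroxylase and glycosyltransferase of collagen, at 35.3, 35.8 and 37.8 CPM in wild-type and 44.1, 43.8 and 41.9 CPM in transgenic mice (log2 fold change 0.25 ± 0.051, adjusted p 0.0343 by edgeR). Of 14 genes that trim and crosslink collagen, 2 fell, Pcolce2, which enhances removal of the procollagen end (-1.12 ± 0.13, adjusted p 0.00742), and Loxl4, a lysyl oxidase-like enzyme (-1.30 ± 0.29, adjusted p 0.0430), the latter from 16 to 20 counts to 6 to 8. None of 9 collagen receptors tested passed in either direction. Laminins, nidogens, perlecan and agrin build the basement membrane with type IV collagen, and of these 15 genes Lama5 (-0.86 ± 0.11, adjusted p 0.0106) and Nid2 (-0.98 ± 0.15, adjusted p 0.0212) fell. Of 10 genes of collagen breakdown tested, 3 fell: Fap, a serine protease of fibroblasts (-2.05 ± 0.14, adjusted p 0.000899), Mmp2, a gelatinase (-0.78 ± 0.16, adjusted p 0.0376), and Mmp15, a membrane-bound metalloproteinase (-0.24 ± 0.057, adjusted p 0.0491). The medians of these lists lay between -0.17 and 0.11 on the log2 scale, and between -0.10 and 0.16 without transgenic mouse 1.

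Markers of the choroid plexus epithelium, which lies against the hippocampus, were lower in transgenic mice, as were the collagen genes that fell. All 19 markers listed fell, each with every transgenic library below every wild-type library, at a median log2 fold change of -2.78. Of all 19087 genes tested, 764 fell, and 17.9% lay all below. The list was chosen with earlier results of these data known. It includes Folr1, Kl, Kcne2 and Clic6, which the paper had selected from the same sequencing for PCR. The count of 19 is therefore partly set by the choice of genes and is not read as a test. The summed level of the markers was 5932, 6123 and 3957 CPM in wild-type and 880, 562 and 724 CPM in transgenic mice. No marker was at 0 in any library. The most abundant, Ttr (transthyretin), was at 3506, 3890 and 2042 CPM in wild-type and 383, 179 and 301 CPM in transgenic mice, while Enpp2 and Kl had log2 fold changes of -2.24 and -2.28. Wild-type mouse 3 was the lowest wild-type library for the summed markers, for all 6 collagen genes that fell and for 8 of the 37 others tested. The share of all genes with this order was not counted, so it is not read as particular to these collagen genes. The part of choroid plexus cells in the collagen differences was not tested. In transgenic mouse 1 the choroid plexus markers were a median 1.40 times the mean of transgenic mice 2 and 3. Of the collagen genes that fell, Col19a1 (1.27), Col4a3 (1.16) and Col8a2 (1.15) were also above that mean in transgenic mouse 1, while Col4a4 (0.778), Col9a3 (0.681) and Col8a1 (0.644) were below it.

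Of the markers of other cells known to make collagen, none of 14 fibroblast markers and none of 12 mural markers passed the test, and of 12 endothelial markers 1 rose, beside 7.10% of all genes called, so that counts in lists this short say little. Median log2 fold changes were 0.00026, -0.019 and 0.074, and without transgenic mouse 1 they were 0.32, 0.089 and 0.26, with 0, 0 and 2 markers called, both higher. Summed endothelial markers were 300.0, 318 and 340 CPM in wild-type and 276, 402 and 354 CPM in transgenic mice, and mural markers 325, 279 and 386 CPM and 242, 428 and 360 CPM. Of 8 ependymal markers, 1 fell and all 8 had negative fold changes (median -0.60), and none of 10 thalamus and habenula markers passed. Without transgenic mouse 1, 2 ependymal markers fell (median -0.88), and again no thalamus and habenula marker passed.

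**Figure D5:**
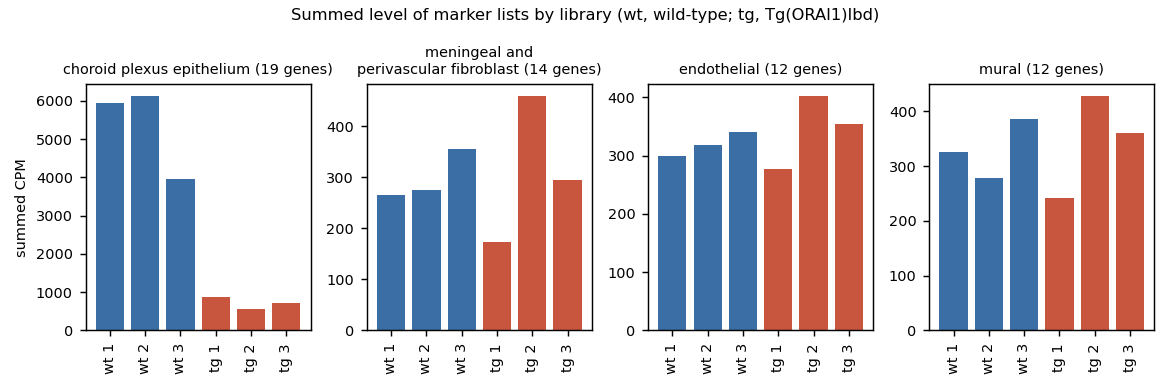
Bars (axes from 0) give the summed CPM of marker lists in each library (wt, wild-type; tg, Tg(ORAI1)Ibd; numbers are mice). Choroid plexus markers are at 3957 to 6123 CPM in wild-type and 562 to 880 CPM in transgenic libraries, whereas fibroblast, endothelial and mural markers are lowest in transgenic library 1 and highest in transgenic library 2.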

How the data were processed

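RNA was sequenced from 1 hippocampal sample of each of 6 mice. Per the file headers and the study's methods, the authors filtered reads with Trimmomatic (minimum length 65 bp), aligned them to mm10 with STAR and counted fragments per Ensembl release 95 gene with featureCounts 1.5.0-p1, reverse-stranded (setting 2) and with mapping quality of at least 3. The deposited values are raw counts. Merged exon length was taken from the same table.

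Symbols and positions came from GENCODE M21, classes were assigned by chain type from textbook knowledge, and all 44 collagen positions matched the table. Counts were tested with edgeR 4.0.16 (TMM scaling, filterByExpr with a minimum count of 10, quasi-likelihood F-test, no covariates) in R 4.3.3, where FPKM was also computed. Exact tests were run in Python 3.11.15. The study used NOISeq, which was not repeated. The steps were tested on simulated data. Alternatives were DESeq2 1.42.0, limma-voom 3.58.1, other scalings and filters, a replicate block, an offset for GC content and leaving out each mouse.

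Collagen genes, classes and lists were chosen with earlier results of these data known. Full statistics were given for genes with an adjusted p under 0.05, the type IV and type VIII chains, Col1a1, Col1a2, Col3a1 and the 3 others of highest wild-type FPKM. Pathway genes were named if called, and markers by wild-type CPM, at most 3 per list. Values of Col6a2, Col6a3, Col7a1, Col9a1, Col9a2, Col14a1 and Col18a1 were added after their values were seen. Deviations of same-numbered mice correlated at r = 0.399, -0.357 and 0.388 over 11191 genes, and those of unlike numbers by as much (wild-type 2 and transgenic 1 at 0.400, wild-type 3 and transgenic 2 at 0.536), so numbers were not taken as pairs. Leaving out mice for the summed collagen level and the gene lists was added after the data were seen. Depth was 37414241 to 52497799 counts per library.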

Additional observations from a re-analysis of the deposited data

How the results depend on the processing

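Col4a3, Col4a4, Col8a1 and Col8a2 kept their direction and their call in all 15 alternatives, with highest adjusted p of 0.0110, 0.0111, 0.00832 and 0.00262. Col9a3 lost its call in 3 and Col19a1 in 5. Collagen genes that fell numbered 4 to 7 with each mouse left out, and those that rose 0 to 2, with 1 in DESeq2's Wald test. Over all genes, the higher and lower counts of 591 and 764 became 1055 and 1175 in DESeq2's Wald test, 263 and 475 with the replicate block, 129 and 278 with GC offsets, and 98 and 310 with GC offsets and the block. Leaving out each mouse gave 11 to 466 higher and 66 to 683 lower. The replicate block called 7 collagen genes lower, adding Col25a1 (-0.50, adjusted p 0.0453), and no number paired the mice. The cause of these differences was not tested.

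Reversed log2 fold changes, all of genes not called, were with GC offsets Col2a1 -0.035, Col4a1 -0.0076, Col9a2 -0.055, Col11a1 0.010 and Col27a1 -0.092, and with the block as well Col2a1 -0.035, Col4a1 -0.0048, Col9a2 -0.14 and Col27a1 -0.13. Limma-voom gave Col12a1 -0.020 and Col27a1 -0.020, and the block alone Col12a1 -0.011. Leaving out each mouse in turn gave ranges across 0 for Col1a1 (-0.15 to 0.60), Col1a2 (-0.57 to 0.30), Col4a5 (-0.59 to 0.036), Col4a6 (-0.022 to 0.77), Col6a6 (-0.083 to 0.31), Col9a2 (-0.18 to 0.41), Col11a1 (-0.19 to 0.055), Col12a1 (-0.18 to 0.38), Col18a1 (-0.56 to 0.11), Col26a1 (-0.40 to 0.047), Col27a1 (-0.11 to 0.26) and Col28a1 (-0.11 to 0.35).

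Depth kept Col10a1 (3 to 7 counts) out of the test, and the transgenic values of Col4a3 and Col4a4 rest on 30 to 64 counts per library. The size of change detectable in low collagens was not measured.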
